A study of Mus musculus with 6 samples.

Results

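The SGLT and GLUT carriers that move glucose and related sugars across the tubular wall were followed in mouse renal cortex. The members were the genes Slc5a1, Slc5a2, Slc5a9, Slc5a10, Slc5a11, Slc2a1, Slc2a2, Slc2a4 and Slc2a5, picked by the gene name printed for each probe in the scanner files. They were 9 of the 27073 gene symbols on the array and held 13 of its 56605 probes. Because the genes were proposed with the comparison of these arrays in view, their levels and differences are a description and carry no test.

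Total RNA of the renal cortex of male mice aged 16 weeks was hybridised to 1-colour Agilent arrays, 3 from the label db/m and 3 from the label db/db. The db/db mouse carries a mutated leptin receptor and becomes obese and diabetic, and the db/m mouse is its lean control. The deposited design text and the methods of the study describe the same comparison differently, as db/db mice given HQD (Huangqi decoction, a herbal extract) for 8 weeks against db/db mice without it. The groups are therefore called labelled db/m and labelled db/db, differences are given as the db/m label minus the db/db label, and no dose of HQD could be tied to an array.

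Filtered glucose is taken back almost wholly by the proximal tubule. SGLT proteins (the Slc5 family) couple the sugar to sodium at the brush border. GLUT proteins (the Slc2 family) let sugar pass down its gradient, GLUT2 and GLUT1 at the blood side. SGLT2 with GLUT2 serves the early segments, and SGLT1 serves the late segment. Other members carry fructose, mannose or myo-inositol.

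Probes of 4 carriers are printed because the description turns on them. Slc5a2 and Slc5a11 differed most on these probes, and Slc2a2 tracked Slc5a2. Slc5a9 gave opposite directions on its pair of probes, of which the printed one was dim. Each printed probe is 60 bases long and is read 5′ to 3′ as the array files give it, on mm9.
Slc5a2: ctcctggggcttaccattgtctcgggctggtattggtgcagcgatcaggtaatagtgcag
Slc5a9: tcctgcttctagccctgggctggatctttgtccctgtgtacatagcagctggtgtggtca
Slc5a11: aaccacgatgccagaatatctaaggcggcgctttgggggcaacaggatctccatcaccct
Slc2a2: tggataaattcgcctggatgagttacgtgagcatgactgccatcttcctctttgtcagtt
The Slc5a2 probe lay at chr7:135412649-135413454 and crossed an exon junction, since its 60 bases spanned 806 bases of the genome. The Slc2a2 probe, at chr3:28625253-28625961, also crossed a junction. The Slc5a9 probe, on the minus strand at chr4:111565871-111565930, and the Slc5a11 probe, at chr7:130391454-130391513, each matched an unbroken stretch. Slc5a2, Slc5a9 and Slc5a11 were each read by a further probe nearer the 3′ end of the transcript, which was the brighter of the pair and is used below unless stated.

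All 13 carrier probes were well above background on all 6 arrays, so that none entered through the group in which it was high. On the brightest probe of each gene, 7 carriers were lower and 2 were higher in labelled db/m, with a median difference of -0.38 on the log2 scale against -0.03 over all 29890 probes tested. Centring the arrays on their median instead, which moved the median of all probes by -0.19, turned Slc2a4 and made 8 lower. The groups did not overlap for 2 carriers, Slc5a9 and Slc5a11, both lower in labelled db/m. Over all probes tested, 53.5% were lower in labelled db/m by sign, and the groups did not overlap for 24.1%, of which 16.4% were lower and 7.75% higher as shares of all probes tested. The carriers reached from -0.88 to 0.46 by probe, and no carrier had a fold difference of 2 or more on this scale. With median centring, the probes printed above for Slc5a2 and Slc5a11 passed 2-fold, at -1.06 and -1.07, and the Slc5a2 probe was -1.29 without labelled db/m replicate 2 and -2.02 with the slide as a block. In whole cortex, fewer cells of a type and less RNA per cell cannot be told apart.

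**Figure D1:**
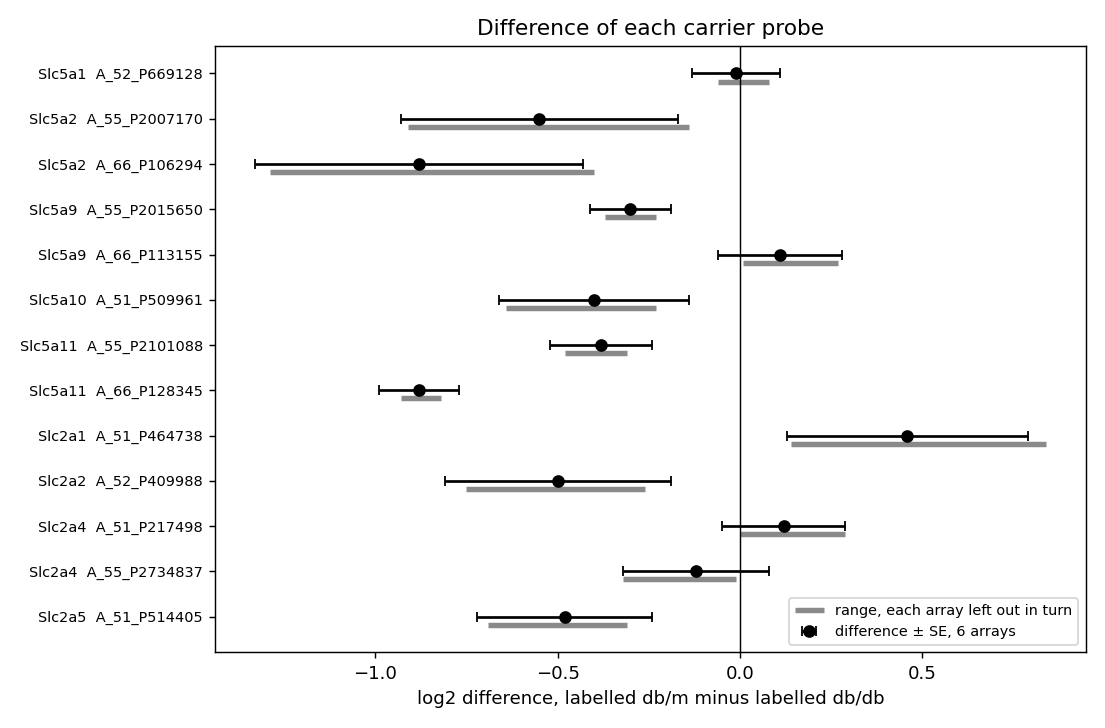
Difference in log2 signal, db/m label minus db/db label, for each of the 13 carrier probes, with the standard error from limma (3 arrays per group) and, in grey, the range when each array was left out in turn. Most points lie left of 0, from -0.88 for the Slc5a11 and Slc5a2 probes printed above to 0.46 for Slc2a1.

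Slc5a2 encodes SGLT2, which takes up the bulk of filtered glucose in the early proximal tubule. Levels are given as multiples of the 75th percentile of the array, a scale that serves to compare arrays for 1 probe and not probes with each other. Slc5a2 read 48.7, 142 and 94.4 on the labelled db/m arrays and 103, 148 and 135 on the labelled db/db arrays. Labelled db/m replicate 1 was the lowest of the 6, whereas labelled db/m replicate 2 lay among the labelled db/db values, so that the groups overlapped. The mean log2 level was 6.44 ± 0.78 (SD, n = 3) in labelled db/m and 6.99 ± 0.27 (SD, n = 3) in labelled db/db, a difference of -0.55 ± 0.38 (SE). Without labelled db/m replicate 1 the difference was -0.14, and without labelled db/m replicate 2 it was -0.91.

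The probe of Slc5a2 across the exon junction gave the same order in labelled db/m, with 3.45, 11.7 and 7.25, against 8.64, 14.9 and 14 in labelled db/db. The difference was -0.88 ± 0.45 (SE), and here too 1 labelled db/m array set much of it, since it was -0.4 without that array. Both probes therefore placed labelled db/m replicate 1 lowest, and the highest labelled db/m array exceeded it 2.92-fold on the 3′ probe and 3.4-fold on the other. Within labelled db/db the same ratios were 1.43 and 1.73.

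Slc2a2 encodes GLUT2, through which glucose leaves the early proximal cell. It read 2.25, 4.44 and 3.18 in labelled db/m and 3.28, 6.18 and 4.47 in labelled db/db. The groups overlapped, with labelled db/m replicate 1 again the lowest, and the difference was -0.5 ± 0.31 (SE). Labelled db/db was 1.42-fold higher on average, which was less than the spread between the arrays of either group. Leaving out 1 array at a time gave differences from -0.75 to -0.26.

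Slc5a1 encodes SGLT1, the high-affinity glucose and galactose carrier of the late proximal tubule. It read 0.817, 0.992 and 0.976 in labelled db/m and 0.908, 0.925 and 0.953 in labelled db/db. The difference was -0.01 ± 0.12 (SE), and the sign turned to 0.08 without labelled db/m replicate 1. Slc5a1 was among the steadier carriers, with a within-group SD of 0.11 on the log2 scale against a median of 0.19 over all probes tested.

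Slc5a10 and Slc2a5 encode the fructose-handling carriers SGLT5 and GLUT5. Slc5a10 read 61.8, 102 and 76.4 in labelled db/m and 74.8, 130 and 115 in labelled db/db, a difference of -0.4 ± 0.26 (SE) that ran from -0.64 without labelled db/db replicate 1 to -0.23 without labelled db/m replicate 1 and was -0.18 with quantile normalization. Slc2a5 read 24.2, 40.2 and 28.4 in labelled db/m and 34, 53.2 and 41.4 in labelled db/db, a difference of -0.48 ± 0.24 (SE) that ran from -0.69 to -0.31 with single arrays dropped (replicate 2 of labelled db/m and replicate 2 of labelled db/db). For both, replicate 2 was the highest and replicate 1 the lowest array within each group, and the groups overlapped.

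Slc5a9 encodes SGLT4, a mannose and fructose carrier, and Slc5a11 encodes SMIT2, which takes up myo-inositol. Slc5a9 read 3.45, 3.8 and 3.17 in labelled db/m and 4.36, 4.35 and 4.07 in labelled db/db. Every labelled db/m array lay under every labelled db/db array, and the difference was -0.3 ± 0.11 (SE), or 1.23-fold. Its probe printed above, which lies further from the 3′ end, read 0.0803, 0.115 and 0.107 in labelled db/m and 0.0874, 0.0844 and 0.106 in labelled db/db, with a difference of 0.11 ± 0.17 (SE) and overlapping groups. That probe was dim, with intensities from 73.2 to 102.7, under the median intensity of each array. Its scanner error was up to 19.7%, against up to 10.01% for the 3′ probe. The separation of Slc5a9 was seen on the brighter probe only, and the mean of both, which weights the dim probe equally, gave -0.09.

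Slc5a11 read 25.5, 32.5 and 27 in labelled db/m and 37.2, 39.7 and 33.4 in labelled db/db, a difference of -0.38 ± 0.14 (SE). The printed Slc5a11 probe read 0.271, 0.279 and 0.245 in labelled db/m and 0.505, 0.504 and 0.454 in labelled db/db, a difference of -0.88 ± 0.11 (SE). Both probes separated the groups in the same direction, and labelled db/db was 1.3-fold higher on the 3′ probe and 1.84-fold higher on the other. Whether the probes read different transcripts was not tested.

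Slc2a1 encodes GLUT1, the basolateral glucose carrier of later tubule segments and of many other cells. It read 15.5, 5.86 and 11.1 in labelled db/m and 7.98, 6.93 and 7.04 in labelled db/db. Labelled db/m held both the highest and the lowest array, and the difference was 0.46 ± 0.33 (SE). Without labelled db/m replicate 1 it was 0.14, and without labelled db/m replicate 2 it was 0.84.

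Slc2a4 encodes GLUT4, the insulin-responsive carrier best known from muscle and fat. It read 13.2, 8.87 and 11.9 in labelled db/m and 11, 9.65 and 10.1 in labelled db/db, a difference of 0.12 ± 0.17 (SE), which became -0.06 when arrays were centred on their median. The other Slc2a4 probe, listed under another transcript, gave -0.12 ± 0.2 (SE), and the groups overlapped on both. Of the 8 fat cell markers, 5 were tested and all were higher in labelled db/m by sign, with a median difference of 0.2, and their summed level was 13.1, 7.43 and 11.4 in labelled db/m and 7.17, 7.02 and 6.72 in labelled db/db. Most of that sum was Fabp4, a fatty acid binding protein, with 11.7, 5.9 and 9.77 in labelled db/m and 5.88, 5.82 and 5.27 in labelled db/db. Fabp4 separated the groups only narrowly, by 5.9 against 5.88, and Cidec, Lep, Retn and Lipe overlapped between the groups. Adipoq, Plin1 and Cfd were too dim to be tested. Of the 8 skeletal muscle markers, Ckm, Myh1 and Actn3 were likewise too dim, and the summed level ran from 0.852 to 1.19 in labelled db/m and from 0.828 to 1.17 in labelled db/db. The part of fat or muscle RNA in the Slc2a4 level was not tested.

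**Figure D2:**
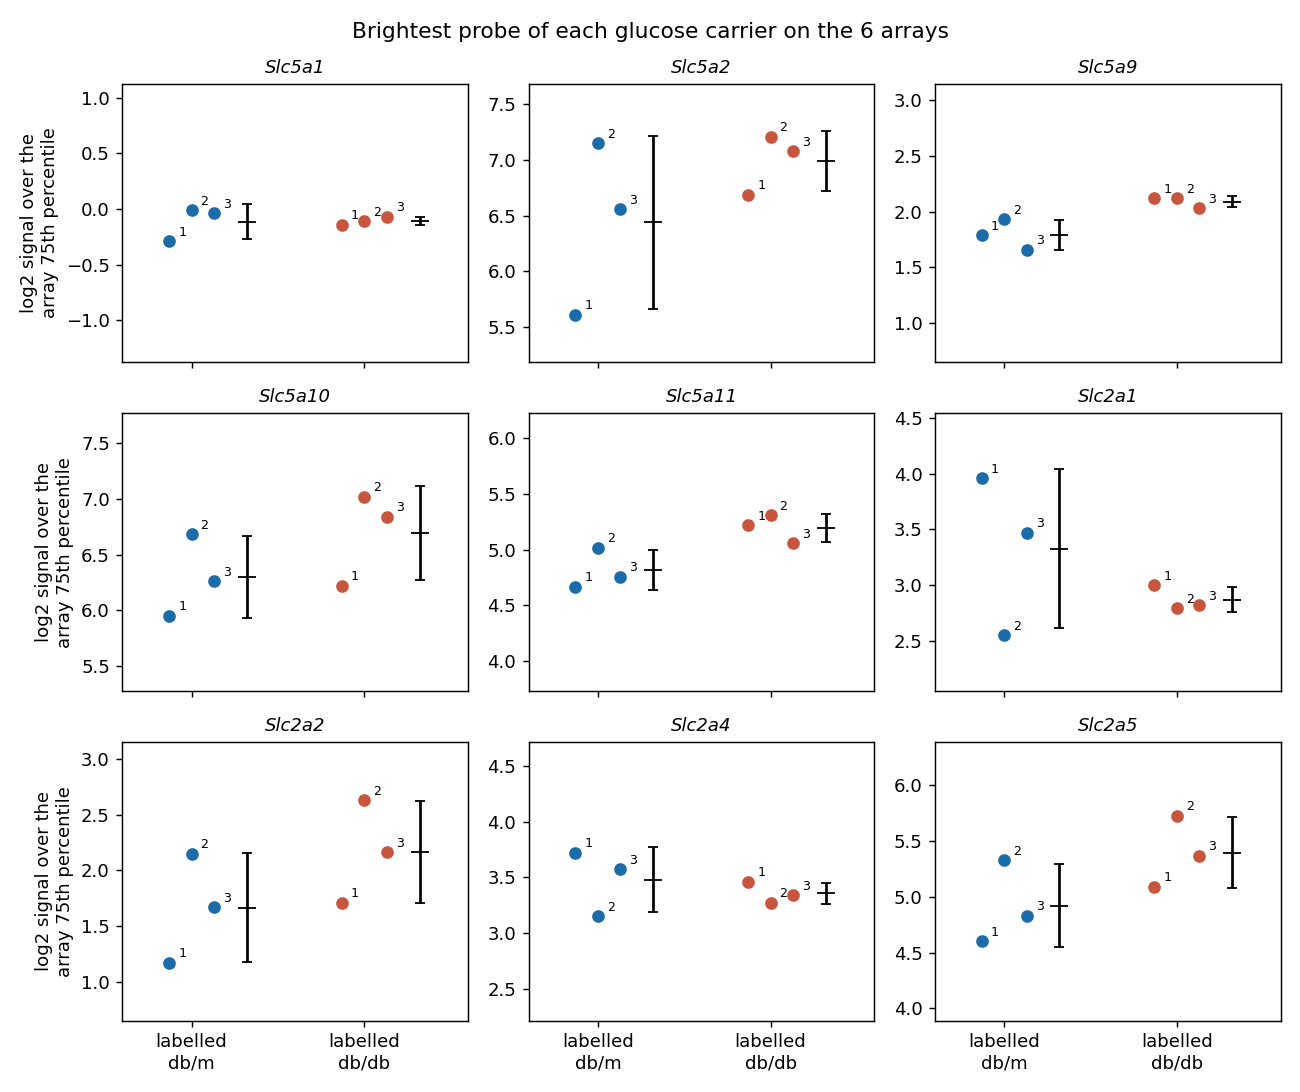
Signal of the brightest probe of each carrier on each of the 6 arrays, as log2 of the multiple of the 75th percentile of the array. Points are single arrays numbered by replicate, and bars are the group mean ± SD (n = 3). Slc5a9 and Slc5a11 are the carriers whose groups do not overlap, and Slc5a2 and Slc2a1 show the wide spread of labelled db/m.

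The carriers differed in how much they varied between arrays of the same label. The within-group SD on the log2 scale was 0.58 for Slc5a2, 0.51 for Slc2a1, 0.47 for Slc2a2, 0.39 for Slc5a10 and 0.35 for Slc2a5. These lay at percentiles 95.2, 92.9, 91.2, 85.8 and 81.2 of all probes tested. Slc5a9 with 0.1, Slc5a1 with 0.11 and Slc5a11 with 0.16 were under the median of 0.19, and Slc2a4 lay near it with 0.22.

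Over the 6 arrays the variable carriers moved along a common order, given here as a description. Slc5a2 rose and fell with Slc2a2 (Pearson r = 0.92, Spearman rho = 0.94), with Slc5a10 (r = 0.89, rho = 0.89) and with Slc2a5 (r = 0.9, rho = 0.94). It ran against Slc2a1 (r = -0.95, rho = -0.94) and Slc2a4 (r = -0.92, rho = -0.94). Slc2a1 and Slc2a4 ran together (r = 0.97, rho = 1). With the 2 arrays farthest from the Slc5a2 median left out, r was 0.89 with Slc2a2 and -0.76 with Slc2a1. Slc5a9 and Slc5a11 ran together (r = 0.94, rho = 0.89). Their groups did not overlap, and that split enters this r. Slc5a11 also ran with Slc2a5 (r = 0.87, rho = 0.83) and Slc2a2 (r = 0.79, rho = 0.83), and Slc5a9 with Slc2a5 (r = 0.75, rho = 0.6). The r of Slc5a9 and Slc5a11 with Slc5a2 was 0.58 and 0.77 over the 6 arrays. With the 2 arrays farthest from the Slc5a2 median left out, these values turned to -0.44 and -0.15. All genes of an array share its RNA and its scaling, and 6 arrays leave each of these values wide.

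**Figure D3:**
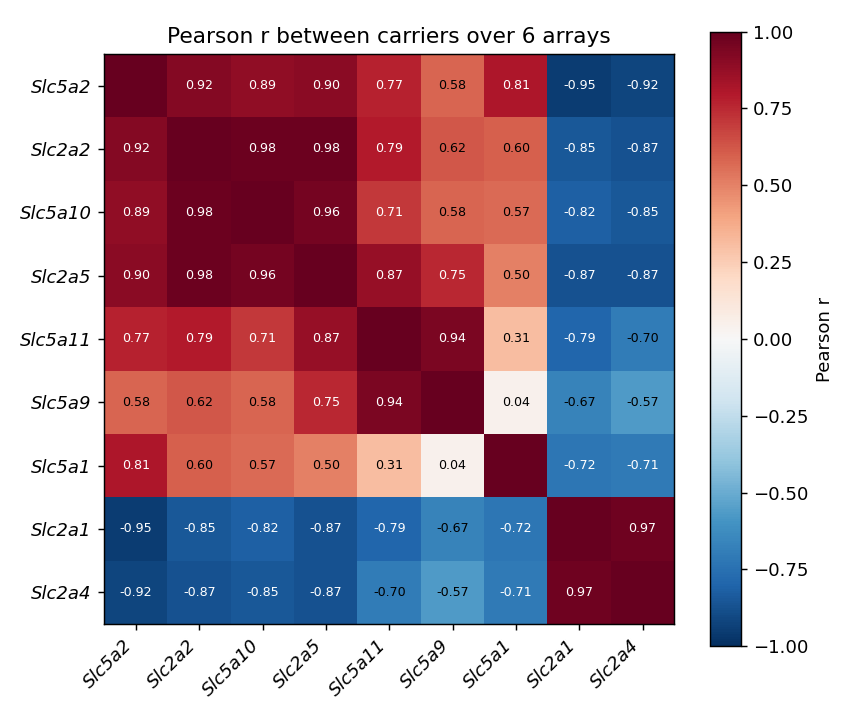
Pearson r between carriers over the 6 arrays, for the brightest probe of each gene. Slc5a2, Slc5a10, Slc2a2 and Slc2a5 share high positive values, and Slc2a1 with Slc2a4 are negative against them and r = 0.97 with each other.

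The same order appeared in markers of nephron segments, none of which is among the 9 carriers, although Slc5a12 is also listed with the other sugar carriers. The median deviation of 15 early proximal markers from their mean over the arrays was -0.67, 0.23 and -0.16 in labelled db/m and 0.06, 0.31 and 0.18 in labelled db/db, and its r with Slc5a2 was 0.99, or 0.94 with the 2 arrays farthest from the Slc5a2 median left out. All 15 were lower in labelled db/m by sign, with a median difference of -0.34, and 3 of them had an unadjusted p under 0.05 in limma. They were Slc6a19, a neutral amino acid carrier, at -1.01 ± 0.2 (SE), Slc7a7 at -0.77 ± 0.25 (SE) and Slc22a8, an organic anion carrier, at -0.56 ± 0.21 (SE). None of these passed the adjustment over all probes. Over all probes tested, 17.7% were called at that unadjusted threshold, 10.8% lower and 6.9% higher, and 0% passed an adjusted p of 0.05.

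The thick limb ran the other way over the arrays in the median of its markers. The median deviation of its 7 markers was 0.62, -0.36 and 0.07 in labelled db/m and 0.07, -0.23 and -0.06 in labelled db/db, with r = -0.97 against Slc5a2 and r = 0.94 with Slc2a1. With the 2 arrays farthest from the median of the carrier in each pair left out, r was -0.83 and 0.94. Slc12a1, the sodium-potassium-chloride carrier of that segment, read 112, 28.4 and 63.5 in labelled db/m and 58, 37.4 and 45.9 in labelled db/db. By sign, 4 of the 7 thick limb markers were higher and 3 lower in labelled db/m, with 0 at an unadjusted p under 0.05 in limma. Among the lower ones, Cldn16 differed by -0.42 ± 0.22 (SE). Podocyte markers (8 genes) read -0.5, 0.31 and -0.1 in labelled db/m and -0.13, 0.25 and 0.07 in labelled db/db, on the side of Slc5a2 (r = 0.96). The median of the 6 distal tubule markers also lay on that side (r = 0.96), but its members differed. Wnk4 was highest on labelled db/m replicate 1, at 9.17. Slc12a3 separated the groups at -0.91 ± 0.15 (SE), with an adjusted p of 0.24 in limma. The 11 late proximal markers tested had a median difference of 0 and r = -0.63 with Slc5a2, which turned to 0.34 without labelled db/m replicate 1. Of the 9 immune cell markers tested, 8 were higher and 1 lower in labelled db/m by sign. At an unadjusted p under 0.05 in limma 4 were higher, against 6.9% of all probes tested, and none passed the adjusted threshold. Those not called included C1qa at -0.03 ± 0.1 (SE), C1qb at 0.14 ± 0.13 (SE) and Cd3e at 0.13 ± 0.22 (SE). The summed level of the immune markers was 62.5, 41.3 and 47.7 in labelled db/m and 31.7, 29.3 and 37.2 in labelled db/db. The part of the make-up of the tissue pieces in the carrier differences was not tested.

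**Figure D4:**
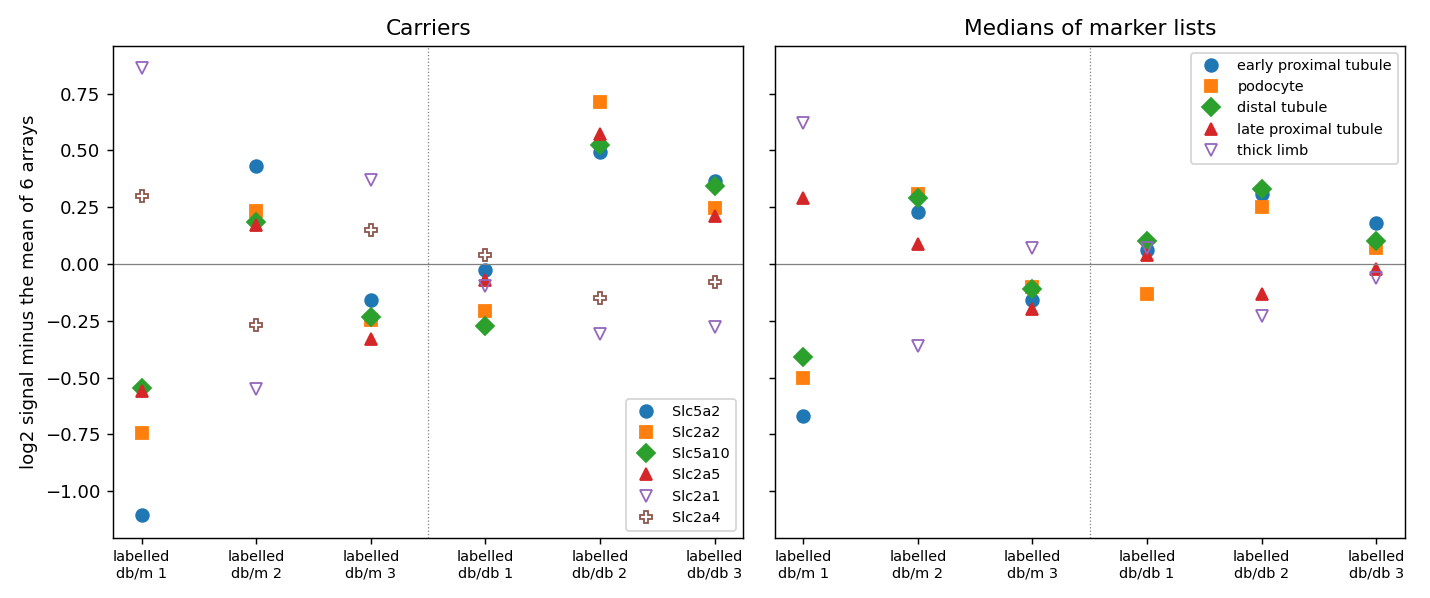
Left, log2 signal of 6 carriers minus their mean over the 6 arrays. Right, the median of the same deviation over the markers of 5 nephron parts. Open symbols (Slc2a1, Slc2a4 and thick limb) are highest on labelled db/m replicate 1, where Slc5a2 and the early proximal markers are lowest at -0.67 for the latter.

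Among the genes most like single carriers over the 6 arrays, those nearest to Slc5a2 were Lztr1 (r = 0.9986), Pdzd2 (r = 0.998) and Cela1 (r = 0.9965). Nearest to Slc2a2 were Agtrap (r = 0.9969), Mtg2 (r = 0.9964) and Slc26a11 (r = 0.9952). Aktip (r = 0.9989), Cab39l (r = 0.9988) and Tmc4 (r = 0.9982) were nearest to Slc2a1, and Nkg7 (r = 0.9955), C230014O12Rik (r = 0.9916) and Syt5 (r = 0.9901) to Slc5a1. They are the top 3 of all named genes tested for each carrier, so that with 6 arrays these values are high by selection. Slc5a1 itself ran only from -0.29 to -0.01 on the log2 scale. Whether any of these genes is tied to its carrier was not tested.

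Of 22 partners and regulators of the carriers, 21 were tested, and 4 were lower and 0 higher in labelled db/m at an unadjusted p under 0.05, against 10.8% lower and 6.9% higher over all probes tested. The median difference was -0.13, against -0.03 over all probes tested. None passed an adjusted p of 0.05. Arrdc4, an arrestin-like gene that answers to glucose and acts on GLUT1, read 0.801, 0.922 and 0.888 in labelled db/m and 1.51, 1.59 and 1.13 in labelled db/db. The groups did not overlap, and the difference was -0.68 ± 0.16 (SE) with an adjusted p of 0.24 in limma. Txnip, its relative with a like role, differed by 0.06 ± 0.17 (SE) with an adjusted p of 0.857 in limma.

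Sgk1, a kinase that raises SGLT1 activity, differed by -0.48 ± 0.19 (SE) with an adjusted p of 0.271 in limma. Slc9a3r1, the scaffold NHERF1, was also among those lower at the unadjusted threshold, at -0.37 ± 0.15 (SE) with overlapping groups. Hnf4a, a transcription factor of the proximal tubule, differed by -0.19 ± 0.15 (SE) with an adjusted p of 0.491, and Pdzk1ip1, the SGLT2 subunit MAP17, by -0.1 ± 0.19 (SE) with an adjusted p of 0.778, both in limma.

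The list of GLUT4 vesicle traffic held 23 names, with Stx4a beside Stx4 and Stxbp3a beside Stxbp3 as names of the same gene. Of these names 21 were on the array and 20 were tested. At an unadjusted p under 0.05 in limma 1 was higher and 2 lower in labelled db/m, against 6.9% higher and 10.8% lower over all probes tested. These counts do not set the list apart from all probes, and none passed the adjusted threshold. Tbc1d4 (AS160), which holds GLUT4 inside the cell until insulin acts, read 1.09, 0.612 and 0.992 in labelled db/m and 0.571, 0.526 and 0.537 in labelled db/db. The difference was 0.68 ± 0.22 (SE) with an adjusted p of 0.244 in limma, in the direction opposite to the carriers of the early tubule. Aspscr1 (TUG), which tethers GLUT4 vesicles, read 3.24, 3.81 and 3.29 in labelled db/m and 5.63, 5.45 and 4.36 in labelled db/db, a difference of -0.57 ± 0.14 (SE) with an adjusted p of 0.24 in limma. Exoc7, an exocyst subunit, differed by -0.42 ± 0.13 (SE) with an adjusted p of 0.24 in limma.

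Of 30 listed names of other sugar carriers, 25 were on the array and 15 were tested. At an unadjusted p under 0.05 in limma 0 were higher and 1 was lower in labelled db/m, no more than the shares of 6.9% and 10.8% over all probes tested. That gene was Mfsd4b1, a sodium and glucose carrier of the kidney, which read 15, 13.8 and 13.5 in labelled db/m and 19.5, 17.4 and 17.2 in labelled db/db, a difference of -0.35 ± 0.11 (SE) with an adjusted p of 0.24 in limma. The median of the 15 was -0.03, the same as over all probes tested.

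The slides set a limit on these differences. A shared slide held replicate 1 of labelled db/m and replicate 3 of labelled db/db. The remaining labelled db/m arrays lay together on a slide of their own, and so did the remaining labelled db/db arrays. Within the shared slide the difference was -1.47 for Slc5a2, -0.99 for Slc2a2, -0.89 for Slc5a10, -0.78 for Slc2a5 and 1.14 for Slc2a1, each from 1 array against 1. On that slide it was -0.24 for Slc5a9, and -0.39 and -0.74 for the Slc5a11 probes. A fit with the slide as a block returned these same differences. The file of labelled db/m replicate 1 also gave signals to 3 significant digits where the others gave 7, and labelled db/m replicate 2 had a higher correlation with labelled db/db replicate 3 (r = 0.992 over probes) than with its own group.

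The check of the labels rested on the leptin receptor gene, Lepr, for which 1 of 6 probes was tested. Its intensity was 2690, 2318 and 2171 in labelled db/m and 1370, 1356 and 2963 in labelled db/db, a difference of 0.42 ± 0.29 (SE) with an adjusted p of 0.447 in limma. The highest value came from labelled db/db replicate 3. The db mutation alters splicing, so that this probe need not fall with it. Of the carriers, Slc5a9 lies 10.1 Mb, Slc2a1 17.3 Mb and Slc2a5 48.0 Mb from the Lepr probes on chromosome 4 of mm9.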

How the data were processed

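Renal cortex RNA was read on 6 arrays, 3 per label. For each array, the authors deposited the scanner output, with the background-subtracted intensity of each spot, made with Agilent Feature Extraction 10.7.1.1 according to the submitters' processing notes, and a matrix of log2 values, whose columns share a median of 6.1 and whose normalization is not given in the sources used here. Coordinates are those of the files (mm9). With limma 3.58.1 in R 4.3.3, spots of a probe were averaged after removal of controls and outlier flags, and log2 intensities were taken relative to the array's 75th percentile. Of 62976 spots, from 53.7% to 60.9% were well above background per array, and no spot was saturated. Testing needed a probe well above background on every array of at least 1 group and was done with lmFit and eBayes and Benjamini-Hochberg adjustment. The array number limits the precision, and p-values measure only the spread between these samples. On simulated data for 29890 probes, of which 200 were changed, 72% of changes of 2-fold passed the adjusted threshold. The simulated noise was independent between probes, with no slides and no shared movement of genes. That share is therefore not the power on the real arrays. The members and lists were chosen with earlier results of these data known. All carrier probes were named, with list genes whose groups did not overlap at an unadjusted p under 0.05, Pdzk1ip1, Hnf4a and Txnip, up to 3 markers a list, and the 3 genes most like 4 of the carriers. A list gene that met this rule is not reported here.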

Additional observations from a re-analysis of the deposited data

How the results depend on the processing

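Slc5a2, Slc5a10, Slc5a11, Slc2a1, Slc2a2, Slc2a5 and the 3′ probe of Slc5a9 kept their sign in every alternative run. Slc5a1 turned to 0.01 with the slide as a random block, 0.08 with replicate 1 of labelled db/m dropped and 0.01 with replicate 3 of labelled db/db dropped. The other Slc5a9 probe turned to -0.08 with quantile normalization, -0.07 with median centring, -0.08 in the deposited matrix and -0.4 with the slide as a block or within slide 1. Of Slc2a4, 1 probe turned to -0.06 with median centring and the other to 0.04 with the slide as a block or within slide 1. Pdzk1ip1 turned to 0.04 with quantile normalization and in the matrix and to 0.08 without labelled db/m replicate 1, with values down to -0.27 when other arrays were left out. Txnip turned to -0.13 with median centring and to -0.02 without labelled db/db replicate 2 or 3, with values up to 0.23 when other arrays were left out. The slide block gave the same differences as slide 1 alone, since no other slide held both labels. Causes were not tested. Median centring moved the median of all probes by -0.19.

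Counts below are at an unadjusted p under 0.05 in limma. Those under the slide block rest on differences of 1 array against 1. The genes of the transport lists called lower (7) and higher (1) became 4 and 3 with quantile normalization, 4 and 4 in the matrix, and 3 and 4 under the slide block. The higher count became 0 with median centring, 3 with no filter on dim probes, and 2 with normexp, with all 6 arrays above background, with trend and robust, and with the mean of a gene's probes. Marker genes called lower (7) and higher (7) became 18 and 2 with median centring, 11 lower under the slide block, 4 higher with no filter and 3 higher with the mean of probes or with an equal-variance test without limma's moderation, which the study does not name for these arrays. Over all probes, 3221 lower and 2061 higher became 5773 and 904 with median centring and 1541 and 1361 under the slide block, and that unmoderated test gave 1280 higher. The adjusted count of 0 became 1 with median centring, normexp, all 6 arrays above background, the random slide block, and trend and robust.

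With 1 array left out, transport genes ran from 3 lower (db/m label, replicate 3 left out) to 13 (db/m label, replicate 2 left out) and from 0 to 6 higher, and marker genes from 3 to 15 lower and 3 to 16 higher. These highest counts also came with db/m replicate 2 left out. All probes ran from 1214 (no db/m replicate 3) to 4094 (no db/m replicate 2) lower and from 1086 (no db/db replicate 2) to 3350 (no db/db replicate 3) higher. The adjusted count ran from 0 to 123, with 59 when replicate 2 of the db/m label was dropped and 123 when replicate 3 of the db/db label was.

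The shared replicate numbers were not treated as pairs in the main fit. Deviations of same-numbered arrays correlated at 0.354, 0.148 and 0.046. Those of differently numbered arrays were not computed, so whether the numbers pair the arrays was not settled. With the number as a replicate block, transport genes called higher were 2. Of the named list genes, Arrdc4 kept an unadjusted p under 0.05 in all 18 alternatives, Aspscr1 and Exoc7 in 17, Mfsd4b1 and Tbc1d4 in 13 and Sgk1 in 8. With the mean of its probes, the Arrdc4 difference shrank from -0.68 to -0.27 (unadjusted p = 0.0499 in limma). With the slide as a block, the unadjusted p in limma was 0.0904 for Aspscr1, 0.0521 for Exoc7, 0.342 for Mfsd4b1 and 0.0578 for Sgk1, so that these calls ended there. The differences in that block are of 1 array against 1. With 3 arrays against 3, an exact permutation test cannot go below 0.1.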
